A study of Mus musculus with 6 samples.

Results

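The mitochondrial genome carries its own small set of genes, and its transcripts are described here in liver, with and without *Spns1*. The members are the genes that the deposited count table places on chromosome MT, 37 of the 54532 genes listed. By the table's gene types, 13 of them are mRNA, 2 are rRNA and 22 are tRNA. The g*Spns1*-cKO mice carry floxed *Spns1* together with Rosa26Cre-ERT2, a tamoxifen-inducible Cre active throughout the body, and received 50 mg/kg tamoxifen at P11, P13 and P15. The controls are labelled wild type, while the methods describe floxed controls without Cre, so the allele they carried is not settled by the sources used here. Whether the controls received tamoxifen, and the age at which these livers were taken, are not given in the sources used here. Poly(A)-selected RNA of whole liver was sequenced from 3 mice per group, 1 library per mouse, and the libraries held between 30350002 and 35295611 gene counts. SPNS1 is a lysosomal lysolipid transporter, and the comparison asks how its loss changes the liver transcriptome, here at the genes of the mitochondrial genome.

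As background, both strands of the circular mitochondrial genome are transcribed by the polymerase POLRMT with TFAM and TFB2M into long precursors that cover many genes at once. tRNA genes lie between most of the mRNA and rRNA genes, and cutting the tRNAs out of the precursor releases the RNAs on either side. Most of the mRNAs are then polyadenylated and protected by LRPPRC and SLIRP. The 13 mRNAs encode subunits of complexes I, III, IV and V of the respiratory chain, which are assembled with many more subunits encoded in the nucleus. Hepatocytes are rich in mitochondria, so these transcripts make up a visible part of any liver library.

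The targeted gene was read first. Control livers held 1008, 1562 and 875 counts of *Spns1*, whereas g*Spns1*-cKO livers held 642, 1175 and 698. On the CPM scale, counts per fixed library total, and with the trimmed mean of M values (TMM), a library scaling that balances most genes between libraries, its level was 40.4 ± 8.98 CPM in controls and 22.1 ± 7.40 CPM in g*Spns1*-cKO livers (mean ± SD, n = 3). It was lower by edgeR's quasi-likelihood test, with a log2 fold change of -0.87, a standard error of 0.25 and an adjusted p of 0.030. The call was lost with library size as the only scaling (log2 fold change -0.43, adjusted p = 0.213 by edgeR), with upper-quartile scaling (-0.74, 0.0635) and without control replicate 2, g*Spns1*-cKO replicate 1 or g*Spns1*-cKO replicate 3 (adjusted p of 0.0785, 0.0910 and 0.0830). The libraries of the groups did not overlap on this scale, although the counts themselves did.

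The sequences of 3 tRNAs are shown because these were the members of the mitochondrial genome that passed the test. They are the GENCODE M21 sequences (GRCm38), written 5′ to 3′ as DNA, with the anticodon in capitals. The anticodon was located as the bases in the middle of a 7-base loop closed by a stem that read the amino acid of the gene's name, and 1 such place was found in 20 of the 22 tRNA genes. mt-Tl1 (leucine) lies at MT:2676-2750, directly between *mt-Rnr2* and *mt-Nd1*. mt-Tw (tryptophan) lies at MT:4950-5016 and overlaps the end of *mt-Nd2*. mt-Th (histidine) lies at MT:11546-11612, beyond *mt-Nd4*. All 3 are on the plus strand.
mt-Tl1: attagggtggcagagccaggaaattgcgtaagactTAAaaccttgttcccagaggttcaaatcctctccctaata
mt-Tw: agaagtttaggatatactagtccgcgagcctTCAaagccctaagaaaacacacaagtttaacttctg
mt-Th: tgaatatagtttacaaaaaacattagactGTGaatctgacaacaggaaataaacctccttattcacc

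A second set of sequences concerns which reads can be assigned at all. Chromosome 1 of the mouse holds a copy of part of the mitochondrial genome, annotated as 7 pseudogenes between 24611535 and 24616197 on the minus strand (GRCm38). Aligned to GENCODE M21 transcripts with blastn, their separate matches run from MT:6390 to MT:11042. That stretch of 4653 bases includes bases between the matches. By position, the whole of 6 mRNA genes lies inside it, namely *mt-Co2*, *mt-Atp8*, *mt-Atp6*, *mt-Co3*, *mt-Nd3* and *mt-Nd4l*, together with 5 tRNA genes, the last part of *mt-Co1* and the first 876 bases of *mt-Nd4*. Of these, *mt-Atp8* was matched only over its bases 162 to 204. No 50-base window of the 5 tRNA genes was found in a nuclear transcript, so they are inside the stretch by position only. *Gm28661* matches *mt-Co2* over 681 bases, *Gm10925* matches *mt-Atp6* over 678 bases and *Gm28437* matches *mt-Co3* over 783 bases, each with 0 mismatches. *Gm28439* and *Gm10222* match *mt-Nd4* over 876 bases and *mt-Nd4l* over 294 bases, again with 0 mismatches. *Gm28438* differs from *mt-Nd3* by a single base in 345, in the start codon, written T3C with the mitochondrial base first and positions counted from the first base of the gene. The first 28 bases of both are shown, with the differing base in capitals, because a read that misses this base fits both places.
mt-Nd3: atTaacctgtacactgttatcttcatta
Gm28438: atCaacctgtacactgttatcttcatta

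Levels differed widely along the genome. Divided by gene length, the mRNAs in order from highest to lowest were *mt-Co1*, *mt-Cytb*, *mt-Nd1*, *mt-Nd2*, *mt-Nd4*, *mt-Nd6*, *mt-Nd5*, *mt-Atp6*, *mt-Co2*, *mt-Co3*, *mt-Nd3*, *mt-Nd4l* and *mt-Atp8*. *mt-Co1*, a catalytic subunit of complex IV, had 12816 ± 2540 TMM-scaled CPM per kb in controls and 11347 ± 244 in g*Spns1*-cKO livers. *mt-Cytb*, the mitochondrial subunit of complex III, had 8038 ± 1796 and 7260 ± 183 CPM per kb, and *mt-Nd1*, of the membrane arm of complex I, had 6626 ± 1323 and 7465 ± 302 CPM per kb. *mt-Co1* was above *mt-Cytb* in 6 of 6 libraries, whereas *mt-Cytb* was above *mt-Nd1* in 3 of 6, so the order of that pair was not settled. The same held for *mt-Atp6* above *mt-Co2* and for *mt-Co3* above *mt-Nd3*, each in 3 of 6 libraries. *mt-Nd1* above *mt-Nd2* and *mt-Co2* above *mt-Co3* held in 5 of 6 libraries, and every other neighbouring pair kept its order in 6 of 6. The authors' FPKM gave the same rank to 13 of the 13 mRNAs.

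All 6 mRNA genes inside the stretch copied on chromosome 1 were below all 7 outside it. The group means inside it ranged from 4.62 to 379.9 CPM per kb and those outside it from 1641 to 12816 CPM per kb. The 6 genes hold 26.3% of the summed mRNA length but between 0.579% and 1.52% of the mitochondrial counts of a library. Sums of a gene and its copy are given as values only, since a read that fits both places may be counted on neither. *mt-Co2* and *Gm28661* came to between 229 and 1055 CPM per kb, and *mt-Co3* and *Gm28437* to between 123 and 350 CPM per kb. The 7 pseudogenes together held between 6778 and 10934 counts per library. *Gm10925* had 2433, 1610 and 2063 counts in controls and 2081, 2292 and 2337 after *Spns1* deletion, a more even series than that of *mt-Atp6* below. How reads that fit more than 1 place were treated is not given in the sources used here, so the counts of these 6 genes and of their copies are uncertain as measures of either. The part of the copy in their low level was not tested. *mt-Nd3*, *mt-Nd4l* and *mt-Atp8* are also the shortest mRNA genes, at 348, 297 and 204 bases, and the part of length was not tested either. *mt-Atp8* overlaps *mt-Atp6*, and *mt-Nd4l* overlaps *mt-Nd4*, on the same strand. The part of reads that span both genes of such a pair was not tested. The tRNA genes inside the stretch (*mt-Ts1*, *mt-Td*, *mt-Tk*, *mt-Tg* and *mt-Tr*) had means between 0 and 25.5 CPM per kb, against 0 to 1315 for the 17 outside it. Shared sequence was not confined to this group, because 51.1% of the 50-base windows of *mt-Co1* and 62.2% of those of *mt-Nd4* also occur in an annotated nuclear transcript, while *mt-Atp8* had none of its 155 windows in one.

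**Figure D1:**
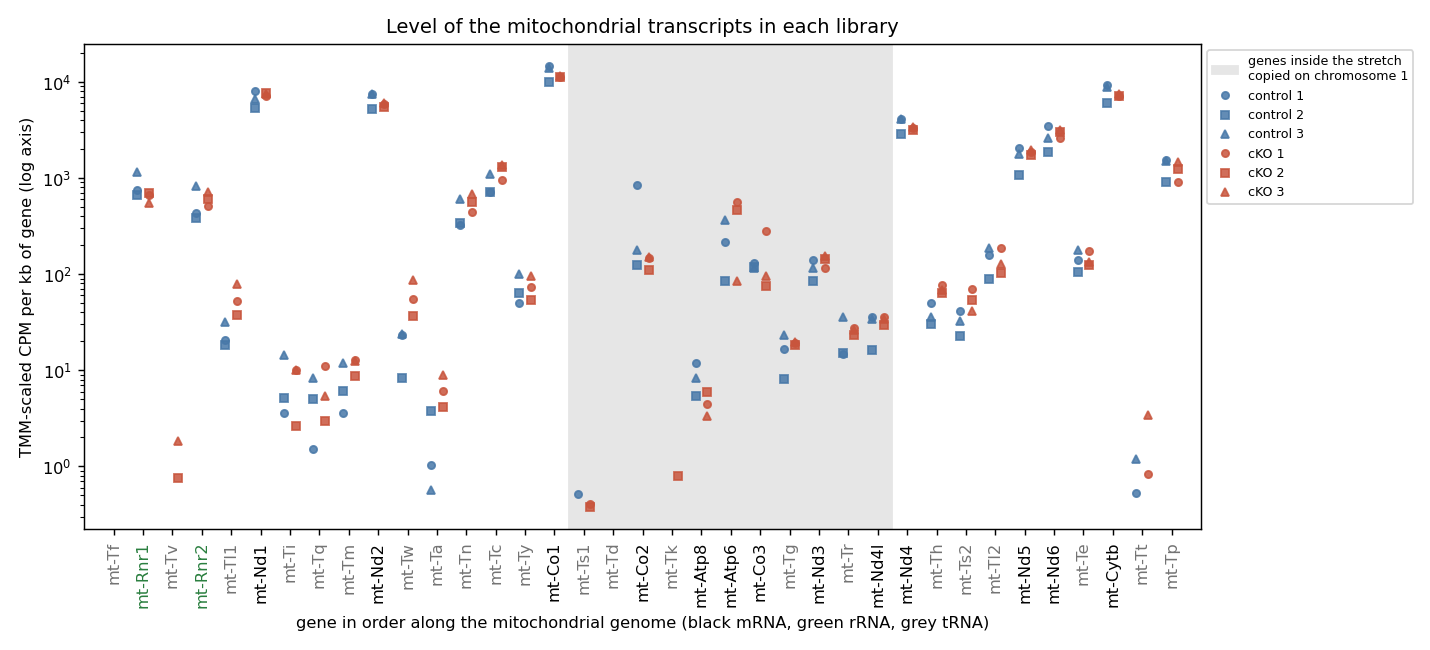
TMM-scaled CPM per kb of each mitochondrial gene (log axis) in each of the 6 libraries, with genes in their order along the genome and the stretch copied on chromosome 1 shaded; libraries at 0 counts are not drawn. The mRNAs outside the shaded stretch lie at 1085 CPM per kb or more in every library, and those inside it at 840.0 or less.

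No mitochondrial mRNA passed the test between genotypes. Over all 15449 genes tested, 41.8% passed an adjusted p of 0.05, with 21.3% called higher in g*Spns1*-cKO livers and 20.5% called lower. Of the 37 mitochondrial genes, 31 passed the filter on low counts and 3 were called, all of them tRNAs and all higher, which is 9.68% of those tested. None of the 13 mRNAs or 2 rRNAs was called by edgeR, and 0 mitochondrial genes were called lower. At an unadjusted p under 0.05 there were 7 mitochondrial genes, 6 tRNAs with a higher level and *mt-Atp8* with a lower one. DESeq2 called 5 mitochondrial genes and limma-voom 4, in each case tRNAs only, beside 42.7% and 41.9% of all genes. The groups did not overlap in TMM-scaled CPM for 5 of the 31 genes, against 54.1% of all genes tested.

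Among the 7 mRNAs outside the copied stretch, the log2 fold changes lay between -0.20 and 0.18 with standard errors between 0.18 and 0.22. *mt-Co1* had 635077, 471582 and 544096 counts in controls and 625152, 662000 and 706044 in g*Spns1*-cKO livers. Its log2 fold change was -0.18 ± 0.19 (standard error), with a 95% confidence interval from -0.60 to 0.25 and an adjusted p of 0.493 by edgeR. The control library of replicate 2 was the lowest of the 6, and the groups overlapped after TMM scaling. *mt-Cytb* had 301367, 211179 and 253294 counts against 292499, 316430 and 335576, and a log2 fold change of -0.15 with an interval from -0.58 to 0.29. For complex I, *mt-Nd1* had 214708, 157246 and 158918 counts in controls and 245574, 283634 and 283503 in g*Spns1*-cKO livers, with a log2 fold change of 0.17 and an interval from -0.24 to 0.58. *mt-Nd5*, a large membrane subunit, had 105701, 60946 and 82080 counts against 123134, 122256 and 140114. Its fold change on the log2 scale was 0.18, with an interval from -0.32 to 0.67. *mt-Nd2* and *mt-Nd4* were at -0.20 and -0.17, with intervals from -0.62 to 0.21 and from -0.57 to 0.24. *mt-Nd6*, the only mRNA of the minus strand, had 50438, 29917 and 34341 counts in controls and 48130, 60048 and 64750 in g*Spns1*-cKO livers, with a log2 fold change of 0.14 and an interval from -0.33 to 0.62. *mt-Nd6* and *mt-Nd5* overlap at their ends on opposite strands, and whether counting used strand is not given in the sources used here. Reads from that overlap, and reads of the opposite strand elsewhere in *mt-Nd6*, therefore cannot be told apart.

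The mRNAs inside the copied stretch varied widely between mice of a group. *mt-Co2*, the copper-binding subunit of complex IV, had 16155, 2602 and 3050 counts in controls and 3634, 2877 and 4075 in g*Spns1*-cKO livers. The control library of replicate 1 stood far above the other 5, and it set the log2 fold change of -1.48 ± 0.86 (adjusted p = 0.246 by edgeR), which was -0.15 (adjusted p = 0.570) without that library. *mt-Atp6*, the proton channel subunit of complex V, had 4104, 1787 and 6276 counts in controls and 13943, 12071 and 2276 in g*Spns1*-cKO livers. The g*Spns1*-cKO library of replicate 3 was low and the other 2 were high, and the log2 fold change was 0.75 ± 0.92. *mt-Co3*, another core subunit of complex IV, had 2912, 2873 and 2308 counts against 8008, 2279 and 2965, and the first g*Spns1*-cKO library was alone in its height. Its log2 fold change was 0.31 ± 0.56, and without that library it turned to -0.51, with an adjusted p of 0.0107 by edgeR. *mt-Atp8*, a short subunit of complex V, had only 68, 34 and 43 counts in controls and 33, 47 and 27 in g*Spns1*-cKO livers. Its log2 fold change was -0.88 ± 0.37 with an adjusted p of 0.082, and without control replicate 2 it was -1.13 with an adjusted p of 0.039. *mt-Nd3* had 1357, 916 and 1018 counts against 1463, 1905 and 2137, and *mt-Nd4l* had 301, 147 and 258 against 381, 335 and 396. Their log2 fold changes were 0.29 ± 0.18 and 0.20 ± 0.27, and neither passed.

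Neither rRNA passed the test, and their fold changes had opposite signs. *mt-Rnr1*, the small ribosomal RNA, had 19996, 19373 and 28105 counts in controls and 23125, 25855 and 20466 in g*Spns1*-cKO livers, with a log2 fold change of -0.42 ± 0.22 (adjusted p = 0.148 by edgeR). *mt-Rnr2*, the large ribosomal RNA, had 19052, 18771 and 33068 counts against 28803, 36764 and 44992, with a log2 fold change of 0.16 ± 0.29 (adjusted p = 0.688 by edgeR). The control library of replicate 3 was the highest control for both genes. Mitochondrial ribosomal RNA carries short or no A tails, and poly(A) selection captures it less completely than mRNA, so these counts are no measure of its amount beside the mRNAs.

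The tRNA class held all of the calls. *mt-Tw* had 44, 17 and 40 counts in controls and 133, 95 and 230 in g*Spns1*-cKO livers, and the groups did not overlap. It rose by 1.71 ± 0.44 on the log2 scale, with an adjusted p of 0.0128 by edgeR, and passed the same threshold without any 1 of the 6 libraries, with adjusted p between 0.00551 and 0.0460. *mt-Tl1* had 44, 42 and 60 counts in controls and 141, 109 and 230 in g*Spns1*-cKO livers, again without overlap. It rose by 1.26 ± 0.32 with an adjusted p of 0.0101 by edgeR, and without g*Spns1*-cKO replicate 3 its log2 fold change was 0.94 and its adjusted p 0.0576. *mt-Th* had 95, 63 and 61 counts against 187, 164 and 180. It rose by 0.84 ± 0.23 with an adjusted p of 0.0155 by edgeR, and its adjusted p was 0.0552 without control replicate 2 and 0.0524 without control replicate 3. These 3 genes rest on few reads: their means in g*Spns1*-cKO livers were 4.01, 4.20 and 4.68 CPM. A mature tRNA is short, structured and lacks a poly(A) tail, so a read on these rows can also stem from a longer RNA that spans the tRNA gene, and the part of such reads was not tested.

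*mt-Ts2* (serine) and *mt-Ta* (alanine) also separated the groups without passing. *mt-Ts2* had 69, 41 and 49 counts in controls and 148, 123 and 97 in g*Spns1*-cKO livers, with a log2 fold change of 0.78 ± 0.29 and an adjusted p of 0.0558. *mt-Ta* had 2, 8 and 1 counts against 15, 11 and 24, with a log2 fold change of 1.74 ± 0.67 and an adjusted p of 0.0581. The most abundant tRNA rows were annotated on the minus strand, although without stranded counting they may also hold reads of the plus strand. *mt-Tp* (proline), next to the control region, had 1315 ± 360 CPM per kb in controls and 1202 ± 275 in g*Spns1*-cKO livers, and *mt-Tc* (cysteine) had 844 ± 226 and 1201 ± 228. *mt-Tc* had 1320, 1454 and 1846 counts in controls and 2237, 3265 and 3558 in g*Spns1*-cKO livers, with a log2 fold change of 0.51 ± 0.21 and an adjusted p of 0.0785. Its neighbour *mt-Tn* (asparagine) had 651, 744 and 1079 against 1130, 1531 and 1889 counts, with a log2 fold change of 0.41 ± 0.27. The counts of *mt-Tc* and *mt-Tn* did not overlap between groups, whereas their TMM-scaled levels did.

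The other 9 tRNAs tested lay between -0.13 and 0.66 on the log2 scale. *mt-Tp* and *mt-Tl2* (leucine) were at -0.13 and -0.05, *mt-Ti* (isoleucine) was at -0.01, *mt-Te* (glutamate) at 0.04 and *mt-Ty* (tyrosine) at 0.06. *mt-Tr* (arginine), *mt-Tg* (glycine), *mt-Tq* (glutamine) and *mt-Tm* (methionine) were at 0.23, 0.26, 0.38 and 0.66, and *mt-Tq*, *mt-Ti* and *mt-Tm* had at most 34 counts in any library. By annotated strand, 3 of the 9 tested tRNAs of the plus strand were called, all higher, beside 21.3% of all genes called higher. Of the 7 tested on the minus strand, 0 were called and 2 had an unadjusted p under 0.05, a difference that was not tested. Whether counting used strand is not given, so each row may also hold reads of the opposite strand. The 6 tRNAs that did not pass the filter had at most 9 counts in any library. *mt-Tf* (phenylalanine) and *mt-Td* (aspartate) had 0 counts in all 6 libraries, which allows a level of up to 0.119 CPM in the shallowest library at 3 counts, for counting error only. *mt-Tv*, *mt-Tk*, *mt-Ts1* and *mt-Tt* had between 0 and 9 counts.

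**Figure D2:**
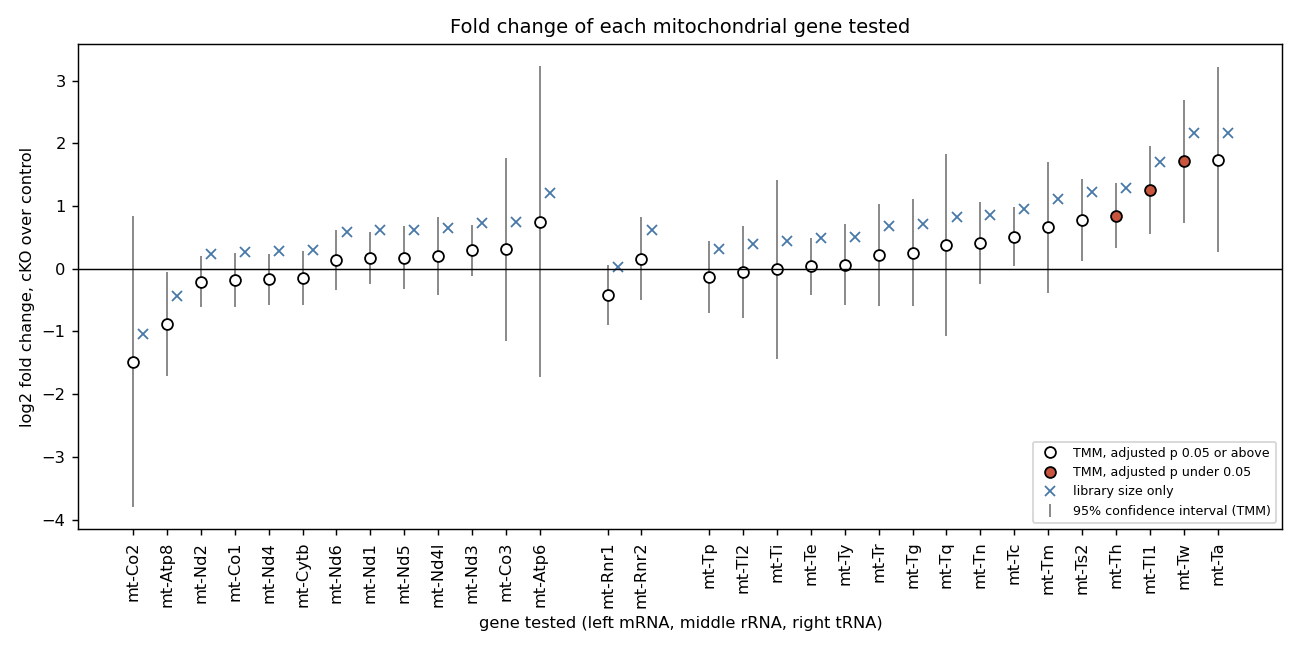
Log2 fold change of g*Spns1*-cKO over control for the 31 mitochondrial genes tested, with 95% confidence intervals under TMM scaling (circles, filled where the adjusted p is under 0.05) and the value with library size as the only scaling (crosses). The 3 filled circles, *mt-Th*, *mt-Tl1* and *mt-Tw*, lie among the tRNAs, and every cross lies above its circle.

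The class totals depended on what they were measured against. As a share of all gene counts, mitochondrial mRNA took 5.26%, 3.47% and 4.69% of the control libraries and 5.60%, 5.68% and 5.84% of the g*Spns1*-cKO libraries. The means were 4.48% ± 0.916 and 5.71% ± 0.121 (SD, n = 3), and the groups did not overlap. Mitochondrial rRNA took 0.120%, 0.108% and 0.202% against 0.167%, 0.192% and 0.194%, and overlapped. Mitochondrial tRNA took 0.0181%, 0.0138% and 0.0220% against 0.0240%, 0.0287% and 0.0333%, without overlap and 1.60 times higher on average. Much of the tRNA total came from rows that were not called. In control replicate 1, *mt-Tp* and *mt-Tc* held 2899 and 1320 of 5884 tRNA counts, against 44, 44 and 95 for *mt-Tl1*, *mt-Tw* and *mt-Th*. After TMM scaling, the mRNA sum was 60870, 39785 and 56265 CPM in controls and 48462, 48294 and 50200 CPM in g*Spns1*-cKO livers. The mean was then 0.937 times that of controls in place of 1.28 times, and the groups overlapped, so the direction of the mRNA total turned with the scaling. The rRNA total turned in the same way (1.29 and 0.940 times), while the tRNA total stayed above that of controls (1.60 and 1.17 times) but overlapped after TMM scaling. The TMM factors lay between 0.834 and 0.873 in controls and from 1.16 to 1.18 in the cKO libraries. With library size as the only scaling, the median over the genes tested moved from 0.01 to 0.46 on the log2 scale and the calls over all genes from 3286 higher and 3166 lower to 7289 higher and 970 lower. With upper-quartile scaling, 4111 were called higher against 2240 lower. Against these shifts, *mt-Co1*, *mt-Cytb*, *mt-Nd2*, *mt-Nd4*, *mt-Rnr1*, *mt-Ti*, *mt-Tl2* and *mt-Tp* changed sign with library size alone. Among the mRNAs, *mt-Nd1*, *mt-Nd3*, *mt-Nd5* and *mt-Nd6* became called, at log2 fold changes of 0.62, 0.74, 0.63 and 0.59. The tRNAs *mt-Ta*, *mt-Tn*, *mt-Tc* and *mt-Ts2* became called as well. The mRNA values stand beside the median of 0.46 on that scale, on which 53.5% of all genes were called.

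**Figure D3:**
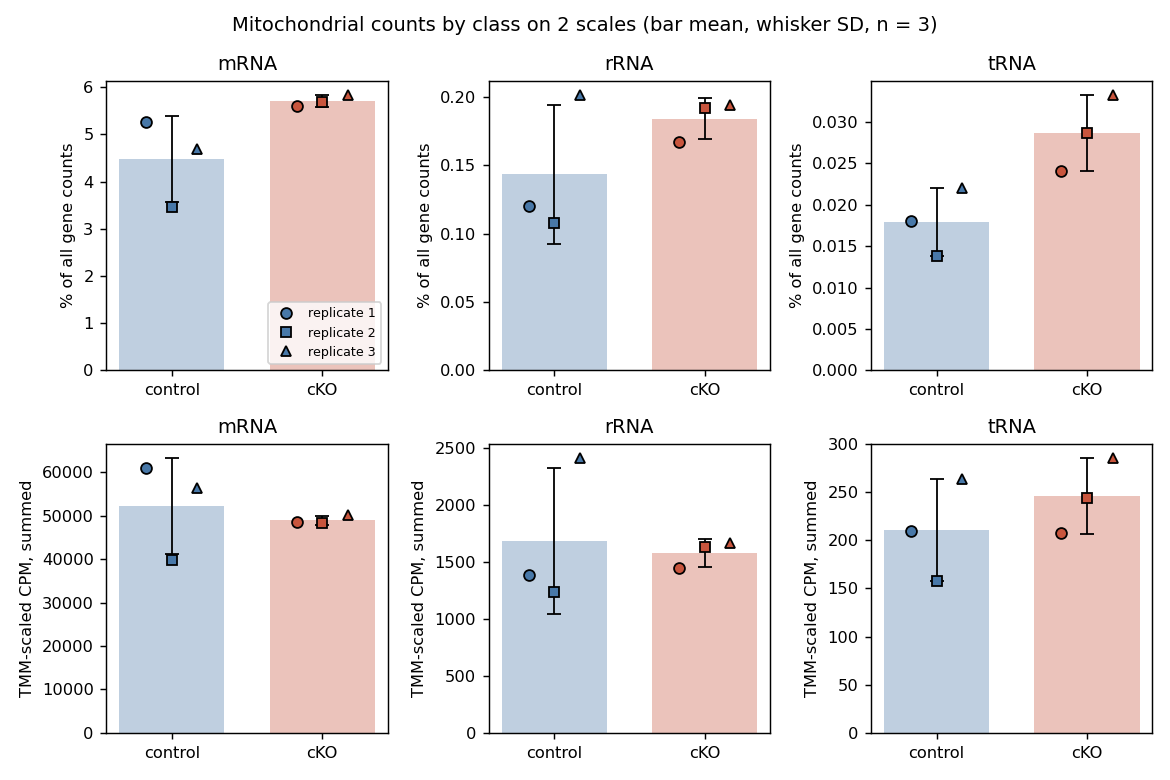
Summed mitochondrial counts by class in each library (points), with the group mean (bar) and SD (whisker, n = 3), as a percentage of all gene counts (upper row) and as TMM-scaled CPM (lower row). The g*Spns1*-cKO mean for mRNA is above the control mean in the upper row (5.71% against 4.48%) and below it in the lower row (48985 against 52306 CPM).

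Within the mitochondrial counts the choice of nuclear scaling plays no part. *mt-Co1* made up 36.2%, 37.2% and 36.5% of the mitochondrial counts in controls and 34.7%, 34.4% and 34.4% in g*Spns1*-cKO livers. *mt-Nd1* made up 12.2%, 12.4% and 10.7% against 13.6%, 14.7% and 13.8%, and *mt-Nd5* made up 6.02%, 4.81% and 5.50% against 6.83%, 6.35% and 6.83%. *mt-Nd2* went the other way, with 12.5%, 13.01% and 13.02% against 12.1%, 11.5% and 12.1%, and so did *mt-Cytb*, with 17.2%, 16.7% and 16.98% against 16.2%, 16.4% and 16.4%. *mt-Nd3*, at 0.0773%, 0.0722% and 0.0682% against 0.0812%, 0.0990% and 0.104%, was of the first kind. In all, 10 of the 13 mRNAs (76.9%) had shares that did not overlap between the groups, 4 higher and 6 lower. Of all genes tested, 39.3% did not overlap when counts were divided by the mitochondrial counts. These percentages are not like for like, because nearly all genes tested are nuclear while the mRNAs are part of the divisor. The mitochondrial counts ranged from 3.59% to 6.07% of a library, a spread that enters the nuclear values. Shares of 1 total are not independent of each other, and some groups were barely set apart: *mt-Nd4* by 9.07% against 9.06%, *mt-Nd4l* by 0.0173% against 0.0174% and *mt-Co2* by 0.204% against 0.202%. Of the 10, 4 lie in the copied stretch, where counts are uncertain (*mt-Co2*, *mt-Atp8*, *mt-Nd3* and *mt-Nd4l*). With the summed mitochondrial mRNA counts as library size, edgeR called 4 mitochondrial genes, all tRNAs (*mt-Tw*, *mt-Tl1*, *mt-Th* and *mt-Ta*), and 0 mRNAs, beside 26.7% of all genes on that scale. The log2 fold changes of *mt-Nd1*, *mt-Nd5* and *mt-Co1* were 0.26, 0.30 and -0.08 on that scale, each with a standard error of 0.28. With errors of that size the fit could not decide on shifts as small as those of the shares, so its 0 mRNAs is no check on them. The rRNA shares overlapped, with *mt-Rnr2* between 1.08% and 2.22% in controls and 1.60% to 2.19% after *Spns1* loss.

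**Figure D4:**
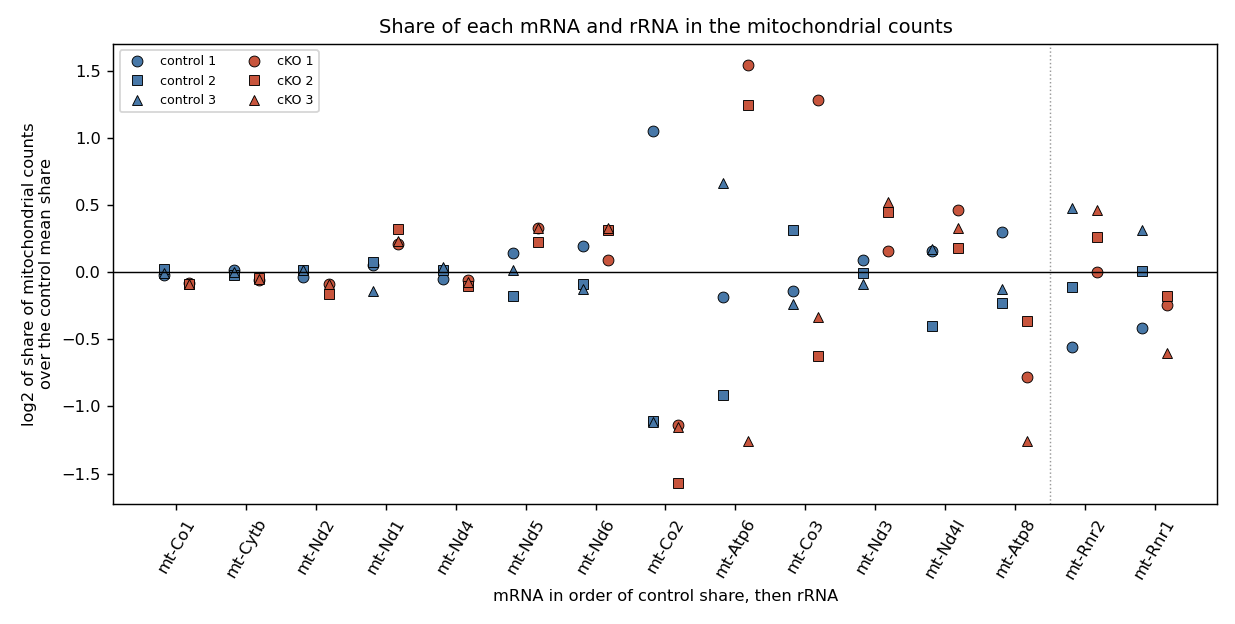
Share of each mRNA and rRNA in the mitochondrial counts of its library, as log2 of the share over the control mean share, with mRNAs in order of their control share. *mt-Co1*, *mt-Cytb*, *mt-Nd2* and *mt-Nd4* lie lower in all 3 g*Spns1*-cKO libraries than in any control, *mt-Nd1* and *mt-Nd5* lie higher, and single libraries stand apart for *mt-Co2* and *mt-Co3*.

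The nuclear genes that serve these transcripts were counted over 12 lists with 208 genes tested. Of these, 79 were lower and 7 were higher in g*Spns1*-cKO livers by edgeR after TMM scaling, which is 38.0% and 3.37% of them beside 20.5% and 21.3% of all genes. Calls in either direction came to 41.3%, beside 41.8% of all genes, and the median log2 fold change was -0.23 beside 0.01. With library size alone, 73 were higher and 8 lower, so the direction of this count turned with the scaling as well. On that scale 7289 of all 15449 genes were called higher and 970 lower, with a median of 0.46. The list medians lay between 0.02 and 0.44 there, so each stayed below that of all genes. The mitochondrial mRNAs and their nuclear partner subunits are set side by side on the TMM scale. Of the 37 nuclear complex I subunits, 25 were lower and 0 higher (12 did not pass), with a median of -0.43, while none of the 7 mitochondrial complex I mRNAs was called. These mRNAs had standard errors between 0.18 and 0.27, against 0.10 for *Ndufs6* and 0.11 for *Ndufa3*. The intervals of *mt-Nd2* and *mt-Nd4* included -0.43 and those of the others did not, while *mt-Nd3* and *mt-Nd4l* lie in the copied stretch. The difference in calls was not tested as a difference in fold change. *Ndufs6* and *Ndufa3* fell most, by 0.86 and 0.79 on the log2 scale. Of complex III, 4 of 9 subunits were lower, among them *Uqcr11* and *Uqcrq*, which fell by 0.89 and 0.56. Of complex IV, 6 of 12 were lower, with *Cox6a1* and *Cox7a2* having dropped by 0.56 and 0.46, and *Cox7a1*, a form best known from heart and muscle, rose by 0.97 from 1.83 ± 0.782 to 3.58 ± 0.379 CPM. Of complex V, 5 of 17 were lower, among them *Atp5e* and *Atp5k*, which fell by 0.71 and 0.58. Complex II, which has no mitochondrially encoded subunit, had 0 of 4 subunits called by edgeR, 1 with an unadjusted p under 0.05, and 1 lower by DESeq2. With library size alone, the complex I list had 2 higher and 2 lower and a median of 0.02. Complex II then had 2 higher, complex IV 3 higher, complex V 4 higher and complex III 1 lower, and the median of all genes was 0.46.

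The machinery of mitochondrial transcription had 3 of 10 genes lower and 0 higher, or 30% called beside 41.8% of all genes in either direction. *Tfam*, which packages mitochondrial DNA and opens its promoters, fell by 0.33 ± 0.10 on the log2 scale, from 54.0 ± 3.92 to 42.9 ± 1.21 CPM (adjusted p = 0.0231 by edgeR), but was at 0.11 with library size alone. *Mterf4* and *Mrpl12* fell by 0.79 and 0.41, the latter being at 0.04 with library size alone. The polymerase gene *Polrmt* was at -0.23 ± 0.14 and *Tfb2m* at -0.06 ± 0.11, and neither passed. Of 24 genes of RNA processing and stability, 8 were lower and 0 higher (33.3% called). *Hsd17b10*, a subunit of the RNase P that cuts the 5′ ends of mitochondrial tRNAs, fell by 0.99 ± 0.17, from 212 ± 33.6 to 107 ± 22.4 CPM. *1110008L16Rik*, which encodes the nuclease of that RNase P, fell by 0.87 and *Slirp* by 0.82, while *Lrpprc*, the partner of *Slirp*, was at 0.05 ± 0.11. Of 24 tRNA and rRNA modification genes, 4 were lower (16.7%, beside 20.5% of all genes called lower), with *Nsun4* and *Mto1* having dropped by 0.68 and 0.66. Of 19 aminoacyl-tRNA synthetases, 8 were lower, including *Lars2* and *Vars2* (-0.59 and -0.57), and *Mars2* and *Rars2* were higher (0.65 and 0.49). With library size alone the counts of these lists turned: transcription had 3 higher and 1 lower, RNA processing 14 higher and 2 lower, modification 11 higher and the synthetases 7 higher. Of all genes, 7289 were called higher and 970 lower on that scale. The list medians of 0.26, 0.36, 0.42 and 0.20 lay below the 0.46 of all genes.

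Of 16 genes for DNA replication and nucleotide supply, 5 were lower and 1 was higher (37.5% called, beside 41.8% of all genes). *Slc25a33*, *Polg2* and *Polg*, the last of which encodes the catalytic subunit of the mitochondrial DNA polymerase, fell by 1.04, 0.95 and 0.31, *Slc25a36* rose by 1.21, and the helicase gene *Twnk* was at 0.06 ± 0.13. Among 14 regulators of mitochondrial biogenesis tested, *Ppargc1a*, a coactivator that drives mitochondrial gene programmes, rose by 1.30 ± 0.28, from 9.37 ± 1.45 to 23.1 ± 8.94 CPM (adjusted p = 0.00822 by edgeR). Its relative *Ppargc1b* fell by 1.18, *Gabpb2* rose by 0.38, *Ppara* fell by 0.51 and *Nrf1* was at 0.14 ± 0.16. Of 22 genes for mitochondrial dynamics and mass, 8 were lower and 1 higher (40.9% called, again beside 41.8% of all genes). *Clpp* and *Phb2* fell by 0.64 and 0.59, the fission gene *Dnm1l* rose by 0.50, and the fusion gene *Opa1* was at -0.26 ± 0.10 (adjusted p = 0.0642 by edgeR). With library size alone, replication had 9 higher and 2 lower, the regulators 8 higher and 0 lower, and dynamics 10 higher and 0 lower by edgeR. Their medians of 0.44, 0.43 and 0.22 lay below the 0.46 of all genes, of which 7289 were called higher and 970 lower. On that scale *Polg* was at 0.14, and *Clpp*, *Phb2*, *Ppara* and *Ppargc1b* were at -0.19, -0.15, -0.07 and -0.74 and no longer passed. *Hsd17b10*, *1110008L16Rik*, *Polg2*, *Slc25a33*, *Ndufa3*, *Ndufs6*, *Uqcr11* and *Mterf4* stayed lower and past the threshold with library size alone.

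Markers of other liver cell types moved with the groups in the same fit. Beside the counts below, 21.3% of all genes tested were called higher and 20.5% lower. Hepatocyte markers were lower for 5 of 8 genes and summed to between 100761 and 113928 CPM in controls and between 61064 and 69679 CPM in g*Spns1*-cKO livers; none was at 0 in all libraries. With library size alone 1 hepatocyte marker was higher and 1 lower (median -0.07), with upper-quartile scaling 1 and 3, and when scaled to mitochondrial mRNA 0 and 2. Macrophage markers were higher for 7 of 8 genes (208 to 373 against 761 to 1116 CPM), cholangiocyte markers for 5 of 5 (44.2 to 62.9 against 170 to 279 CPM), endothelial markers for 5 of 5 (90.7 to 102 against 163 to 199 CPM), stellate cell markers for 4 of 5 (66.1 to 85.4 against 139 to 179 CPM) and lymphocyte markers for 2 of 6 (6.85 to 8.38 against 19.9 to 23.0 CPM). Erythroid markers were higher for 3 of the 4 tested and lower for 1 (139 to 162 against 218 to 284 CPM). In whole liver, fewer cells of a type and less RNA per cell cannot be told apart. The part of these shifts in the values of the mitochondrial genes and of their nuclear partners was not tested.

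**Figure D5:**
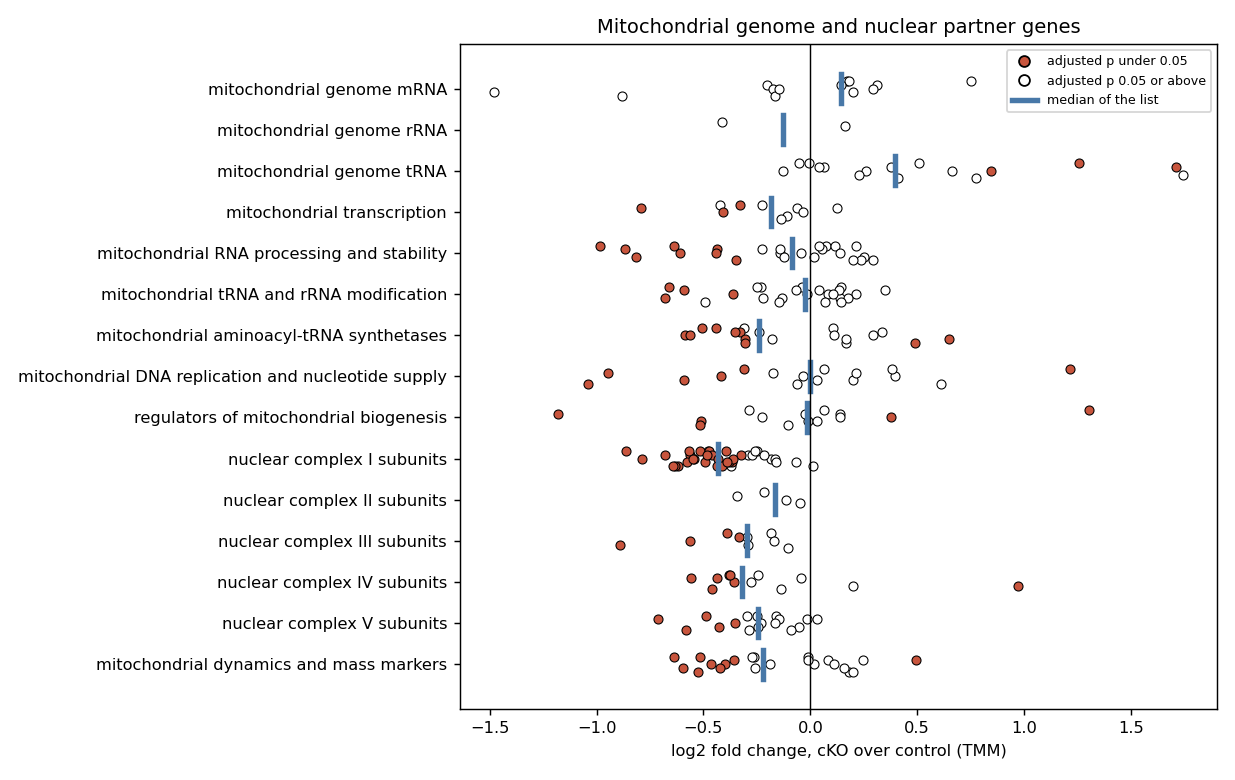
Log2 fold change of g*Spns1*-cKO over control after TMM scaling for the mitochondrial genes by class and for the genes of the 12 nuclear lists; each point is a gene, filled where its adjusted p is under 0.05, and the bar is the median. The complex I list lies furthest to the left, with a median of -0.43, beside a median of 0.14 for the mitochondrial mRNAs. That median was -0.15 for the mRNAs outside the copied stretch and 0.25 for those inside it, where counts are uncertain.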

How the data were processed

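RNA-Seq of whole liver was analysed for 3 g*Spns1*-cKO and 3 control mice, grouped by their labels. The authors deposited 1 table with whole-number counts per gene and library, not normalized. Per the labels, mRNA was selected with oligo-dT beads and fastp, HISAT2 2.0.5, featureCounts 1.5.0-p3 and mm10 were named in the submitters' processing notes. The strand setting and the treatment of reads with several matches are not given in the sources used here. The deposited FPKM values, which divide counts by gene length and a library total, served only to check the order of mRNA levels, and the deposited gene length to express levels per kb. Columns with the authors' own comparison (group means, fold changes and p-values) were not used.

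Counts were fitted in R 4.3.3 with edgeR 4.0.16 (filterByExpr by group, TMM, robust quasi-likelihood test, Benjamini-Hochberg adjustment over all 15449 genes tested, threshold 0.05). limma 3.58.1 and DESeq2 1.42.0 served as alternatives, next to other scalings, filters, a block on the replicate number and leaving out each library. The libraries held 30350002 to 35295611 counts, and floors cover counting error only because reads carry no molecular identifiers. All 37 mitochondrial genes had the same coordinates in GENCODE M21 (GRCm38). Nuclear copies were sought among its transcripts with blastn (at least 90% identity over 40 bases) and by exact 50-base windows, and the nuclear genome outside annotated transcripts was not searched.

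The members and gene lists were chosen with earlier results of these data known. All mRNAs, rRNAs and tested tRNAs are named, and of each nuclear list the 2 highest and 2 lowest log2 fold changes among genes called with a mean of at least 1 CPM, together with *Polrmt*, *Tfam*, *Tfb2m*, *Lrpprc*, *Slirp*, *Polg*, *Twnk*, *Ppargc1a*, *Nrf1* and *Opa1*. Shares and class totals were given without a test. Labels do not say more of the mice than 1 per library, and p-values measure the spread between them. Libraries of a group differed by a chi-square per gene between 38.8 and 114, above sampling noise.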

Additional observations from a re-analysis of the deposited data

How the results depend on the processing

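The number of mitochondrial genes called was 3 and became 11 with library size as the only scaling, 6 with upper-quartile scaling, 5 with DESeq2, 7 without a filter on low counts, 0 at an adjusted p under 0.01 and 2 to 5 without 1 library. Without the filter, *mt-Rnr1* was called lower. The log2 fold change of *Spns1* was past the threshold except with library size only (-0.43), upper-quartile scaling (-0.74), at an adjusted p under 0.01 (-0.87) and without control replicate 2, g*Spns1*-cKO replicate 1 or g*Spns1*-cKO replicate 3, and it ranged from -1.18 to -0.68 without 1 library. The nuclear lists had 7 genes higher and 79 lower, 73 and 8 with library size only, 15 and 41 with upper-quartile scaling, and 3 to 8 higher and 43 to 70 lower without 1 library. All genes tested had 7289 higher and 970 lower with library size only, and 4111 and 2240 with upper-quartile scaling. Class shares moved by less than the spread between replicates; the mRNA difference of 1.23 percentage points was 0.731 without control replicate 2, and 1.22 without the 6 genes inside the copied stretch, an alternative chosen after seeing the data.

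Every gene that changed sign had missed the threshold under TMM scaling. With library size only, *mt-Rnr1*, *mt-Ti*, *mt-Nd2*, *mt-Co1*, *mt-Nd4*, *mt-Tl2*, *mt-Cytb* and *mt-Tp* were at 0.036, 0.44, 0.24, 0.27, 0.28, 0.39, 0.30 and 0.32. With upper-quartile scaling, *mt-Ti*, *mt-Tl2* and *mt-Tp* were at 0.12, 0.075 and 0.0052. *mt-Ti* was at 0.0099 with limma-voom, at 0.0030 with a library size without mitochondrial counts and, like *mt-Tl2* (0.065), at 0.068 when scaled to mitochondrial mRNA. Without 1 library, *mt-Rnr2* ranged from -0.043 to 0.58, *mt-Ti* from -0.36 to 0.76, *mt-Tq* from -0.24 to 0.92, *mt-Ty* from -0.16 to 0.37, *mt-Co3* from -0.51 to 0.63, *mt-Tg* from -0.075 to 0.61, *mt-Tr* from -0.0072 to 0.76, *mt-Nd4l* from -0.10 to 0.38, *mt-Tl2* from -0.33 to 0.17, *mt-Nd5* from -0.053 to 0.36, *mt-Nd6* from -0.061 to 0.37, *mt-Te* from -0.14 to 0.22 and *mt-Tp* from -0.35 to 0.034. The causes were not tested.

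Whether the replicate numbers pair the mice is not settled. Same-numbered libraries correlated in their deviations by 0.0421, 0.0317 and -0.0266, while differently numbered ones ranged from -0.0812 to 0.0562. With 3 libraries per group this check cannot exclude a pairing, and the methods name littermates as controls. With the number as a replicate block, 6 mitochondrial genes were called and the nuclear lists had 7 higher and 69 lower. *Spns1* was then at -0.90 with a standard error of 0.11 and an adjusted p of 0.00068 by edgeR, against 0.25 and 0.030 without the block. Depth limits the tRNA genes most, where 6 of 22 had too few counts to be tested.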
